A study of Mus musculus with 4 samples.

Results

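The genes described here encode the proteins that dock membrane vesicles and fuse them with their target: the synaptic vesicle glycoproteins Sv2, the synaptotagmins, the syntaxins, the vesicle-associated membrane proteins (Vamp), the Snap proteins, the Rab3 GTPases, the complexins and the syntaxin-binding proteins. They were chosen by symbol among protein-coding genes, as the 8 families Sv2a to Sv2c, Syt, Stx, Vamp, Snap23, Snap25, Snap29 and Snap47, Rab3a to Rab3d, Cplx, and Stxbp. The rule matched 61 annotated symbols, of which 60 had a row among the 55812 features of the read count table, and Vamp7 was not analysed here. These were 17 synaptotagmins, 15 syntaxins, 7 Vamp genes, 6 syntaxin-binding genes, 4 genes each of the Snap, Rab3 and complexin families, and 3 Sv2 genes. No measured value enters the rule, but the families were picked with the results of this comparison known, among them the rise of Sv2c. Fold changes and test results of the members are therefore a description of these libraries, and nothing about the families as a whole is drawn from them.

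The cells were primary Leydig cells, the androgen-producing cells between the tubules of the testis, with the stage labelled as 6-month-old mouse. A small interfering RNA (siRNA) against Trps1 was given to 2 samples, called Trps1 siRNA 1 and 2, and a control siRNA to another 2, called Negative siRNA 1 and 2. Trps1 encodes a zinc finger protein of the GATA type that represses transcription, and the comparison asks which transcripts change when it is lowered. The labels name no strain, culture time or number of animals. Nothing in them shows that samples within a group were separate cultures, so p-values measure a spread that may be technical.

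Membrane fusion is driven by SNARE proteins. A Vamp protein on the vesicle zips up with a syntaxin and a Snap protein on the target membrane, and each compartment of the cell uses its own set. Syntaxin-binding proteins of the Munc18 type hold syntaxins ready, Rab3 GTPases bring vesicles to the membrane, and complexins and synaptotagmins couple fusion to calcium. Neurons and gland cells use specialised members such as Snap25, Syt1 and Stx1a for stored transmitters and peptides, whereas steroid hormones leave Leydig cells without being packed into such vesicles.

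Depth was 17844125 and 21597187 counted reads in Trps1 siRNA samples 1 and 2, against 20116799 and 25852898 in Negative siRNA samples 1 and 2. Trps1 itself had 23.5 and 30.1 CPM (reads scaled to library size) with Trps1 siRNA, against 38.1 and 42.2 CPM with Negative siRNA, so 67.1% of the control level was left. Leydig markers were abundant in every library, with the 8 markers summing to 6035 and 6477 CPM with Trps1 siRNA and to 4054 and 4337 CPM with Negative siRNA. Of these 8, 6 rose, with the largest fold change in Cyp17a1 (6.5-fold). Most of the sum was Cyp11a1, at 3420 and 3660 CPM with Trps1 siRNA, against 2410 and 2610 CPM with Negative siRNA. Star and Insl3 did not pass the test (log2 fold changes -0.09 and 0.02). The 8 macrophage markers summed to 1951 and 1557 CPM with Trps1 siRNA and to 2262 and 2116 CPM with Negative siRNA, and 5 of them fell, of which Lyz2 was not past the test with DESeq2, with limma voom and without Trps1 siRNA 2 or Negative siRNA 1, at -0.31, -0.32, -0.17 and -0.23 on the log2 scale. In bulk samples fewer cells of a type and less RNA per cell cannot be told apart. The germ cell list, with 1 of 8 genes tested, summed to 1.4 and 2.39 CPM with Trps1 siRNA and to 1.49 and 1.21 CPM with Negative siRNA.

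With Trps1 siRNA, Sv2c rose 4.98-fold and the calcium sensor Syt7 rose 1.94-fold. Syt12 and Stxbp4 also rose, by 1.21-fold and 1.31-fold, and Vamp3, Vamp5, Vamp8, Stx6 and Syt13 fell, to between 0.493 and 0.850 of the control level. Of the 60 genes, 42 passed the filter on low counts and were tested. Among those 42, 4 rose and 5 fell, and 33 were not past the test (edgeR, adjusted p under 0.05 over all 14701 genes tested). The share called over all tested genes was 11.2%, with 5.24% called higher and 6.0% called lower. The median log2 fold change of the 42 genes was -0.06, beside 0.0024 over all tested genes. The members' CPM summed to 1761 and 1782 with Trps1 siRNA, against 1765 and 1805 with Negative siRNA, so the total over the families hardly differed. The groups did not overlap in 25 of the 42 tested members, and in 52.2% of all tested genes.

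**Figure D1:**
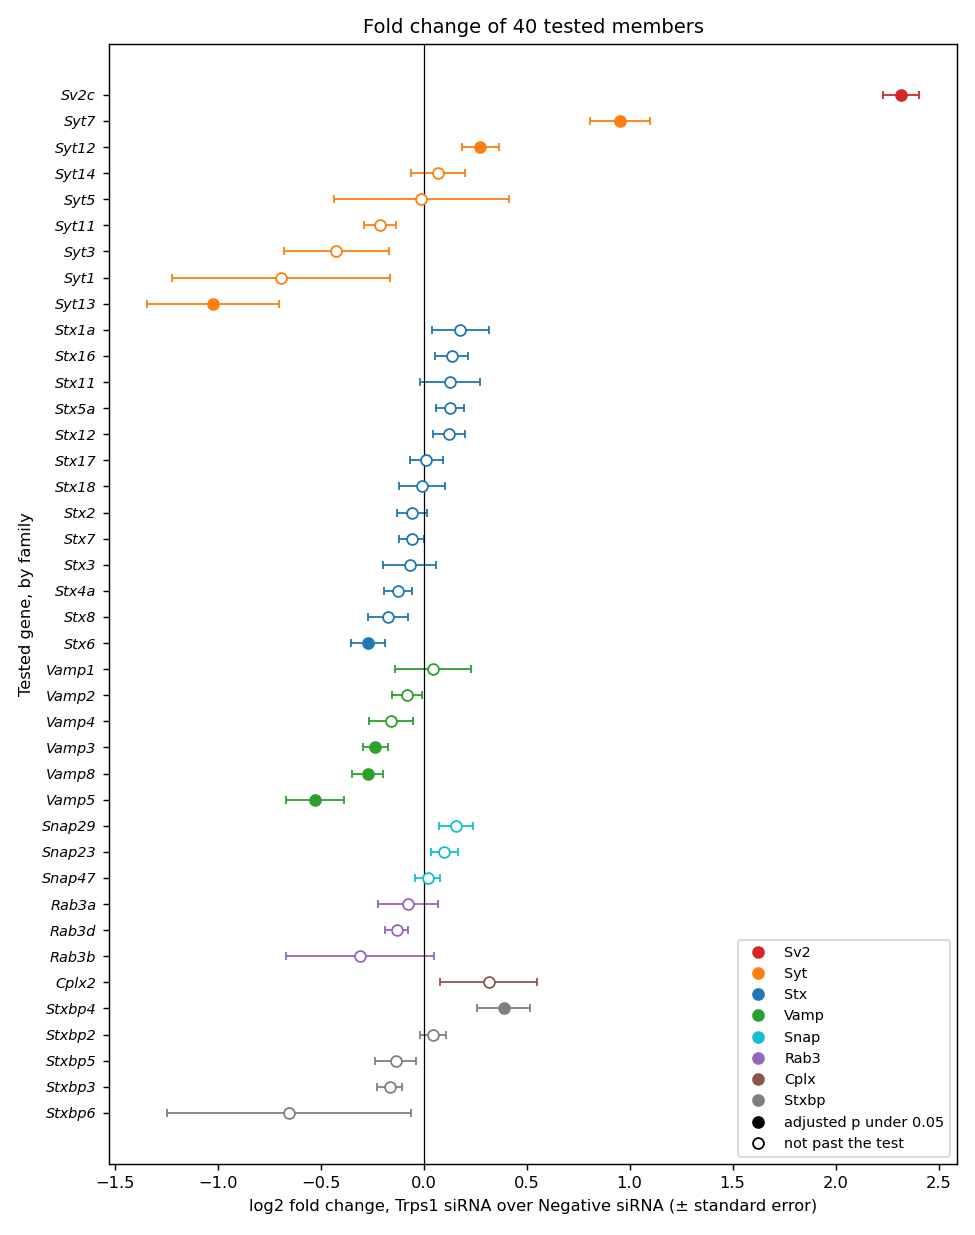
Log2 fold change (x axis, Trps1 siRNA over Negative siRNA, with its standard error) of 40 of the 42 tested members, listed by family on the y axis. Filled points passed the test and open points did not; Sv2c at 2.32 and Syt7 at 0.95 lie apart on the right, and the Vamp genes that passed lie left of 0.

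The Sv2 genes encode glycosylated, transporter-like proteins of synaptic and secretory vesicles that also serve as entry receptors for botulinum neurotoxin A. Sv2c (ENSMUSG00000051111, chromosome 13, 95954594 to 96132577, minus strand, GRCm38) had 1213 and 1501 reads with Trps1 siRNA, against 296 and 330 with Negative siRNA. That was 67.9 and 69.1 CPM with Trps1 siRNA, against 14.7 and 12.9 CPM with Negative siRNA, and each treated sample lay far above each control sample. Its mean was 68.5 ± 0.790 CPM with Trps1 siRNA and 13.8 ± 1.30 CPM with Negative siRNA (SD, n = 2 each). On the log2 scale Sv2c rose by 2.32 ± 0.09 (SE), at an edgeR adjusted p of 4.16e-16. By size of rise it ranked 2 among the 705 genes called higher with a mean of at least 5 CPM. The authors' deposited table gives Sv2c a log2 fold change of 2.31. No other annotated gene shares exon sequence with Sv2c.

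The other Sv2 genes were close to silent. Sv2a, the form found at most synapses, had 3 and 1 reads with Trps1 siRNA, against 7 and 4 with Negative siRNA. Sv2b had 4 and 9 reads with Trps1 siRNA, against 4 and 2 with Negative siRNA, and neither gene was tested. Per exon length, over all 4 samples, Sv2c made up 98.5% of the summed RPKM (reads scaled to exon length and library size) of the 3 genes. Its level was 7.06 RPKM with Trps1 siRNA, against 1.42 RPKM with Negative siRNA.

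The promoter of Sv2c is shown because this gene rose the most, and those of Vamp5 and Vamp8 because they are neighbours that both fell. Each window, from RefSeq for GRCm38.p6, runs from 250 bases before to 50 bases after the gene start, 5′ to 3′ on the gene's strand. The windows lie at chr13:96132528-96132827, chr6:72380419-72380718 and chr6:72390618-72390917, all on the minus strand. Capitals mark matches on either strand to the GATA motif, searched as the letters GATA preceded by an A or a T and followed by an A or a G. Its last letters can overlap the start of the other motif searched, but no printed window held both.
Sv2c: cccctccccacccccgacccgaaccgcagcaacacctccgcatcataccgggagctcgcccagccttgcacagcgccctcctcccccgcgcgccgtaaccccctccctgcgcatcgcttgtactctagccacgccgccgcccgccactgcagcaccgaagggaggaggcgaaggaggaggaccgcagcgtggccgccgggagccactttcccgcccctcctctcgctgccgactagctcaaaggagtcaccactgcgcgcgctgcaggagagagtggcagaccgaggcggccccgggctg
Vamp5: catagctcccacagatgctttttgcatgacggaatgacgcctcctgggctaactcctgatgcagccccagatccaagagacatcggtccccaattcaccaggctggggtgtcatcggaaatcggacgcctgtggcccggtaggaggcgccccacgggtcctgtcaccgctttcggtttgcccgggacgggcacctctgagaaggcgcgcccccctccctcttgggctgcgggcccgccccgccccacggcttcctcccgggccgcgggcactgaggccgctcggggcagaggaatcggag
Vamp8: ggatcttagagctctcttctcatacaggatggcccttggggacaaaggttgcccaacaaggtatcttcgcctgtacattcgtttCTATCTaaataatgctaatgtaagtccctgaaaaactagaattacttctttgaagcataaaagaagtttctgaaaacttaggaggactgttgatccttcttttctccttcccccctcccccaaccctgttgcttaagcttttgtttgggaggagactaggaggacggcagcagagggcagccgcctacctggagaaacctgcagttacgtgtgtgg
The Sv2c window held 71.7% G and C, against a median of 52.7% over the 32851 windows of the table. It had no match to the GATA motif and none to AAGGTCA, the motif of Nr5a1, the nuclear receptor that drives steroidogenic genes. Vamp8 had a single GATA match at position -166, and Vamp5 had neither motif. The GATA motif was found in 29.8% of all windows and in 12 of 63 windows of members, and AAGGTCA in 4.72% of all windows and in 3 of the 63. Stx6 and Stxbp4, the other genes past the test that had a window, held neither motif.

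**Figure D2:**
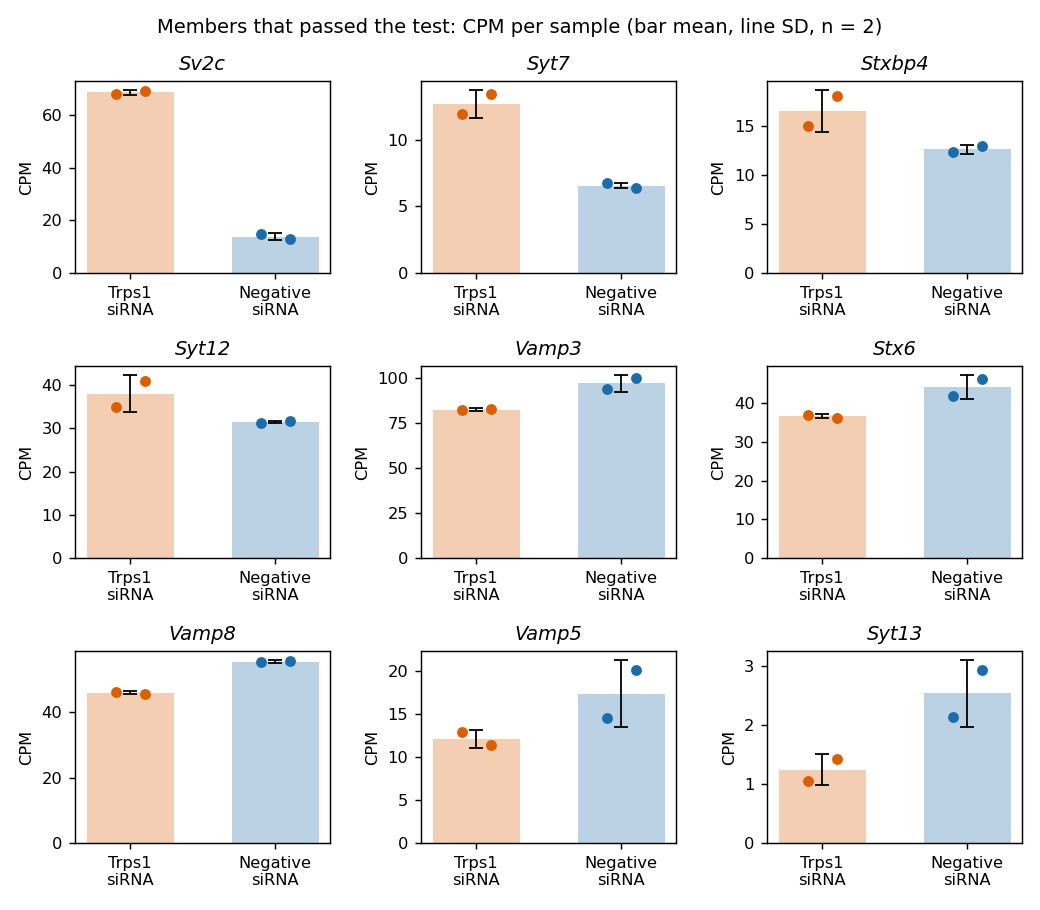
CPM (y axis, from 0) in each sample of the 9 members that passed the test, with Trps1 siRNA on the left and Negative siRNA on the right of each panel. Bars are means, lines are SD and points are the 2 samples of a group; the groups do not overlap in any panel, and Sv2c at 67.9 and 69.1 CPM shows the widest gap.

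Synaptotagmins carry paired C2 domains that bind membranes, in many members in response to calcium. Syt7, a slow calcium sensor with high affinity that acts in lysosome exocytosis and hormone secretion, had 11.9 and 13.4 CPM with Trps1 siRNA, against 6.72 and 6.41 CPM with Negative siRNA. Treated samples were close to double the control samples, with no overlap. The underlying counts were 213 and 291 reads with Trps1 siRNA, against 135 and 164 with Negative siRNA. The log2 fold change of Syt7 (ENSMUSG00000024743, chromosome 19, 10389090 to 10453180, plus strand) was 0.95 ± 0.15, with an edgeR adjusted p of 5.84e-05. Sv2c and Syt7 were the 2 members listed in the authors' deposited table, which gives Syt7 a log2 fold change of 0.95. Over 384 bases Syt7 shares exon sequence with Gm26859 on the opposite strand, so its reads are uncertain if counting did not use strand.

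Syt12 and Syt13 belong to the synaptotagmins that do not bind calcium, and they moved in opposite directions. Syt12 had 35.0 and 41.0 CPM with Trps1 siRNA, against 31.3 and 31.7 CPM with Negative siRNA. Its control samples were nearly equal and the treated samples were spread above them. Its log2 fold change was 0.28 ± 0.09 with an edgeR adjusted p of 0.0436. Without Trps1 siRNA 2 it was 0.15 (edgeR adjusted p = 0.498), and the call was also lost without either Negative siRNA sample, at 0.26 and 0.28. Syt12 shares 950 bases of exon with A930001C03Rik on the opposite strand, which had 8 and 1 reads with Trps1 siRNA and 10 and 5 with Negative siRNA. Syt13 was scarce, with 19 and 31 reads with Trps1 siRNA, against 43 and 75 with Negative siRNA. That was 1.06 and 1.43 CPM with Trps1 siRNA, against 2.14 and 2.93 CPM with Negative siRNA, a log2 fold change of -1.02 ± 0.32 (edgeR adjusted p = 0.0377). The call of Syt13 was lost without Trps1 siRNA 1, Trps1 siRNA 2 or Negative siRNA 2, at -0.84, -1.26 and -0.77.

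Among the other tested synaptotagmins, Syt11 had the highest level per length in the family, at 8.23 RPKM with Trps1 siRNA and 9.54 RPKM with Negative siRNA. Syt11 has no calcium-binding activity and restrains membrane uptake and secretion in neurons and macrophages. It had 43.6 and 42.1 CPM with Trps1 siRNA, against 51.0 and 48.4 CPM with Negative siRNA, without overlap, but did not pass the test (log2 fold change -0.21 ± 0.08, edgeR adjusted p = 0.0765). Syt14, Syt5, Syt3 and Syt1 had log2 fold changes of 0.07, -0.01, -0.42 and -0.69, none past the test. Syt1, the fast calcium sensor of synapses, had 9 and 12 reads with Trps1 siRNA, against 10 and 30 with Negative siRNA, and its groups overlapped. The summed CPM of all synaptotagmins was 108 and 117 with Trps1 siRNA, against 109 and 108 with Negative siRNA, since the rises of Syt7 and Syt12 stood beside lower values of others.

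Vamp proteins are the vesicle-side SNAREs, and of 6 tested genes 3 fell and 3 did not pass the test. Vamp3, which serves recycling endosomes, had 81.8 and 82.7 CPM with Trps1 siRNA, against 93.5 and 99.9 CPM with Negative siRNA (log2 fold change -0.23 ± 0.06, edgeR adjusted p = 0.0133). Vamp8, which acts in fusion with late endosomes and lysosomes and in granule release, had 46.2 and 45.5 CPM with Trps1 siRNA, against 55.1 and 55.6 CPM with Negative siRNA (log2 fold change -0.27 ± 0.07, edgeR adjusted p = 0.0158). In both genes the samples of a group were close together and the groups were apart. Vamp5, a form known from muscle, had 12.9 and 11.4 CPM with Trps1 siRNA, against 14.6 and 20.1 CPM with Negative siRNA. Its control samples were further from each other than Trps1 siRNA 1 was from Negative siRNA 1, and Vamp5 fell by 0.53 ± 0.14 on the log2 scale (edgeR adjusted p = 0.0158). Without Negative siRNA 2 the log2 fold change of Vamp5 was -0.27, that of Vamp3 -0.19 and that of Vamp8 -0.27, and without Trps1 siRNA 2 they were -0.44, -0.25 and -0.26, none past the test. Vamp8 also missed it without Negative siRNA 1, at -0.28.

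Vamp5 (chromosome 6, 72368794 to 72380468) and Vamp8 (chromosome 6, 72385223 to 72390703) lie on the minus strand with 4754 bases between them. Vamp2, the main vesicle SNARE of synapses, had 47.8 and 48.7 CPM with Trps1 siRNA, against 51.8 and 50.3 CPM with Negative siRNA, and did not pass the test either. The CPM summed over the 7 Vamp genes was 218 and 216 with Trps1 siRNA, against 244 and 259 with Negative siRNA, and the groups did not overlap. The macrophage markers, which include Lyz2, Cd68 and Adgre1, were lower in the same samples (1951 and 1557 CPM with Trps1 siRNA, against 2262 and 2116 CPM with Negative siRNA). Most of that sum was Lyz2, at 1210 and 987 CPM with Trps1 siRNA, against 1440 and 1290 CPM with Negative siRNA. The part of macrophages in the falls of the Vamp genes was not tested.

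Syntaxins sit on the target membranes, and of 14 tested genes 1 fell and 13 did not pass the test. Stx6, a syntaxin of the trans-Golgi network and endosomes, had 36.9 and 36.2 CPM with Trps1 siRNA, against 41.8 and 46.2 CPM with Negative siRNA (log2 fold change -0.27 ± 0.08, edgeR adjusted p = 0.0295). Both treated samples lay below both control samples, but the call was lost without Trps1 siRNA 1, Trps1 siRNA 2 or Negative siRNA 2, at -0.29, -0.26 and -0.20. Stx4a, the plasma membrane syntaxin with the highest level per length of the family, had 68.8 and 62.3 CPM with Trps1 siRNA, against 72.1 and 70.6 CPM with Negative siRNA, and did not pass the test (log2 fold change -0.12 ± 0.07). Stx1a, a syntaxin of synapses, had 11.0 and 10.9 CPM with Trps1 siRNA, against 9.95 and 9.38 CPM with Negative siRNA, and did not pass the test either. On the log2 scale Stx5a and Stx18 of the early secretory pathway had 0.13 and -0.01, Stx7 and Stx8 of late endosomes -0.06 and -0.17, and Stx17 of autophagosomes 0.01. The summed CPM of the syntaxins was 553 and 545 with Trps1 siRNA, against 552 and 557 with Negative siRNA.

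In the Snap family edgeR, DESeq2 and limma voom called 0 of 3 tested genes, with 0 at an unadjusted p under 0.05 in each. Snap25, the partner of Vamp2 and Stx1a at synapses, had 0 reads in every library, which allows up to 0.168 and 0.138 CPM with Trps1 siRNA and 0.149 and 0.117 CPM with Negative siRNA (3 reads, counting error only). Its widely expressed relative Snap23 had 75.4 and 74.9 CPM with Trps1 siRNA, against 68.5 and 71.6 CPM with Negative siRNA. Snap47, the most abundant Snap gene per length, had 106 and 96.8 CPM with Trps1 siRNA, against 101 and 99.3 CPM with Negative siRNA. Snap29, which pairs with Stx17 and Vamp8 in autophagosome fusion, had a log2 fold change of 0.16 ± 0.08.

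Of the 6 syntaxin-binding genes 1 rose and 5 did not pass the test. Stxbp4, which binds Stx4a and is known from insulin-regulated glucose transporter traffic, had 15 and 18 CPM with Trps1 siRNA, against 12.3 and 12.9 CPM with Negative siRNA. Its treated samples were spread above nearly equal controls, and Stxbp4 rose by 0.39 ± 0.13 on the log2 scale (edgeR adjusted p = 0.0469). Without Trps1 siRNA 2 it was 0.24 (edgeR adjusted p = 0.479), and the call was also lost without either Negative siRNA sample, at 0.36 and 0.42. Stxbp3, the Munc18 partner of Stx4a, had the highest level per length of all 60 genes, at 56.5 RPKM with Trps1 siRNA and 63.4 RPKM with Negative siRNA. It had 291 and 312 CPM with Trps1 siRNA, against 327 and 350 CPM with Negative siRNA, without overlap, and did not pass the test (log2 fold change -0.16 ± 0.06, edgeR adjusted p = 0.0883). Stxbp2, Stxbp5 and Stxbp6 had log2 fold changes of 0.05, -0.13 and -0.65, none past the test.

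Of 3 tested Rab3 genes edgeR called 0, with 1 at an unadjusted p under 0.05, as did limma voom, and DESeq2 called 0, with 0 at that level. Rab3d, a GTPase of secretory granules in gland cells, held 85.1% of the family's summed RPKM. It had 106 and 110 CPM with Trps1 siRNA, against 120 and 116 CPM with Negative siRNA (log2 fold change -0.13 ± 0.06, edgeR adjusted p = 0.155). Cplx2, the only complexin tested, had 3.75 and 3.36 CPM with Trps1 siRNA, against 2.93 and 2.77 CPM with Negative siRNA, and did not pass the test. Cplx1 missed the filter with 5 and 6 reads with Trps1 siRNA, against 25 and 12 with Negative siRNA.

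**Figure D3:**
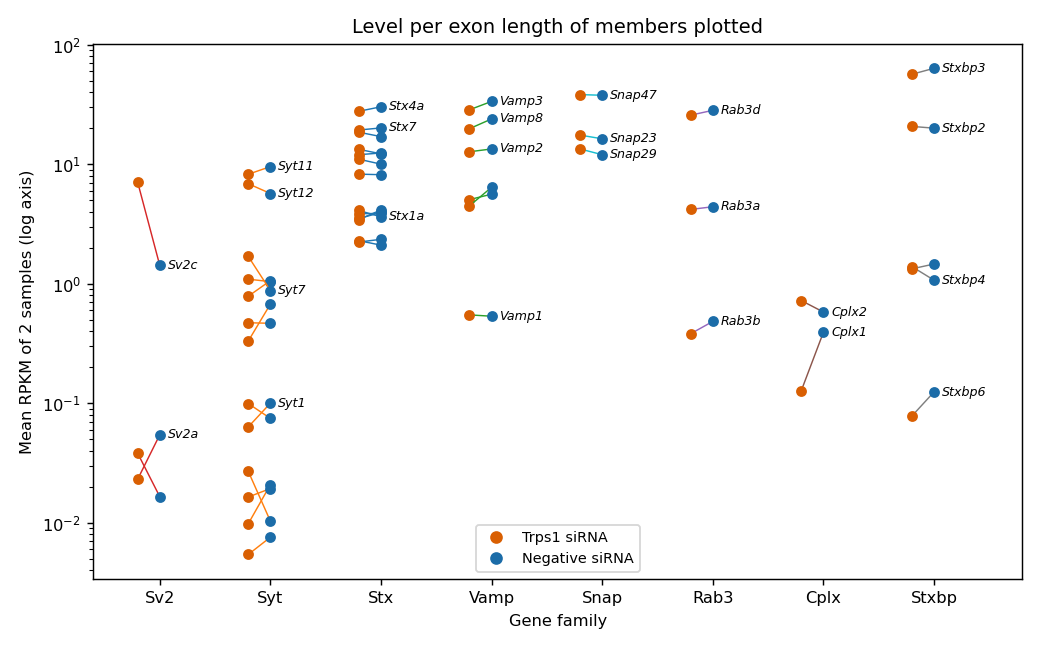
Mean level per exon length (RPKM of 2 samples, log axis) of members with reads in both groups, by family on the x axis, with Trps1 siRNA left and Negative siRNA right of each line. Stxbp3, at 56.5 and 63.4 RPKM, is highest, and the steep line of Sv2c joins 7.06 RPKM with Trps1 siRNA and 1.42 RPKM with Negative siRNA.

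The members with the highest levels per length were Stxbp3, Snap47, Vamp3, Stx4a and Rab3d. Over the 4 samples the mean was 59.9 RPKM for Stxbp3, 38.0 for Snap47, 31.0 for Vamp3, 29 for Stx4a and 26.9 for Rab3d. Of forms typical of synapses, Vamp2 had 13.0 RPKM and Stx1a 3.86 RPKM, while Snap25 had no reads. Of the 18 genes that missed the filter, 9 had no read in any library, namely Cplx3, Cplx4, Rab3c, Snap25, Stx19, Syt4, Syt6, Syt10 and Syt16. The other 9 were Cplx1, Sv2a, Sv2b, Syt2, Syt8, Syt9, Syt15, Syt17 and Vamp9, with at most 25 reads in a library.

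Neuronal and neuroendocrine markers were set beside the rises of Sv2c and Syt7. Of 9 neuron markers 3 were tested, and Rbfox3 and Tubb3 rose, to 177% and 133% of the control level. Map2, the other tested marker, had 7.84 and 8.37 CPM with Trps1 siRNA, against 9.6 and 9.38 CPM with Negative siRNA. Its log2 fold change was -0.22 ± 0.15, lower and not past the test. The list summed to 49.4 and 50.1 CPM with Trps1 siRNA, against 40.5 and 38.5 CPM with Negative siRNA, nearly all of it from Tubb3, Map2 and Rbfox3, while Gap43 was at 0 and Stmn2, Nefl, Elavl3 and Elavl4 had at most 0.168 CPM in any library. The 6 neuroendocrine markers summed to 1.06 and 1.01 CPM with Trps1 siRNA, against 0.945 and 0.664 CPM with Negative siRNA, with Chga, Th and Dbh at 0. Of the Schwann cell markers, Sox10 was at 0 in every library, and Mbp and S100b had log2 fold changes of -0.23 ± 0.11 and -0.09 ± 0.19, not past the test. The Sertoli list summed to 3052 and 2882 CPM with Trps1 siRNA, against 2856 and 2719 CPM with Negative siRNA. Nearly all of that came from Clu, which did not pass the test (3030 and 2860 CPM with Trps1 siRNA, against 2840 and 2700 CPM with Negative siRNA). Of 7 Sertoli markers 3 were tested and Gata1 rose (log2 fold change 0.41 ± 0.11), a call lost with DESeq2 and without Trps1 siRNA 1, Trps1 siRNA 2 or Negative siRNA 1, at 0.41, 0.40, 0.41 and 0.34. Of 5 smooth muscle markers 3 were tested, and Acta2 fell, also under each of the 12 alternatives. Des and Myh11 had log2 fold changes of -0.27 and -0.11, not past the test. Of 5 endothelial markers and the 1 tested germ cell marker, edgeR, DESeq2 and limma voom called 0, with 0 at an unadjusted p under 0.05.

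Other genes of vesicle traffic were taken in 5 lists of 90 genes. Of 67 tested genes 3 rose and 3 fell, or 8.96%, beside 11.2% called over all tested genes. The median log2 fold change of the 67 genes was 0.04, beside 0.0024 over all tested genes. The 3 that rose stand in the list of other C2-domain, priming and active-zone genes. Doc2b, a calcium sensor with high affinity, had 104 and 106 CPM with Trps1 siRNA, against 79.3 and 77.4 CPM with Negative siRNA (log2 fold change 0.42 ± 0.06, edgeR adjusted p = 2.21e-05). Doc2b shares 241 bases of exon with Gm12339 on the opposite strand, so the limit given for Syt7 also holds for it. Unc13d, a priming factor of granule release, had 169 and 158 CPM with Trps1 siRNA, against 134 and 128 CPM with Negative siRNA (log2 fold change 0.32 ± 0.06). Rph3al, which binds Rab3 and Rab27 GTPases, had 17.2 and 16.6 CPM with Trps1 siRNA, against 11.8 and 11.9 CPM with Negative siRNA (log2 fold change 0.51 ± 0.12). In all 3 the groups were well apart.

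Of the genes that fell, Esyt1, a tether between endoplasmic reticulum and plasma membrane, belongs to the same list of 14 tested genes. So 3 of that list rose and 1 fell, or 28.6%, beside 11.2% called over all tested genes. The share called was 7.14% among vesicle membrane proteins and transporters, and 6.25% among Rab regulators and exocyst subunits. Esyt1 had 74.9 and 72.3 CPM with Trps1 siRNA, against 90.6 and 95.8 CPM with Negative siRNA (log2 fold change -0.34 ± 0.06, edgeR adjusted p = 5.39e-04). It shares 421 bases of exon with Gm29585 on the opposite strand, with the same limit. Syngr1, a vesicle membrane protein, had 11.5 and 9.94 CPM with Trps1 siRNA, against 14.5 and 15.2 CPM with Negative siRNA, as the single change among 14 tested vesicle membrane proteins and transporters. Its log2 fold change was -0.48 ± 0.13, and the call was lost with DESeq2 and without Trps1 siRNA 2 or Negative siRNA 2, at -0.48, -0.38 and -0.45. Rab3il1, which activates Rab GTPases, had 25.1 and 20.4 CPM with Trps1 siRNA, against 30.7 and 30.3 CPM with Negative siRNA, as the single change among 16 tested Rab regulators and exocyst subunits. The log2 fold change of Rab3il1 was -0.43, and without Trps1 siRNA 2 it was -0.28 and not past the test. Among 15 other SNAREs and genes of SNARE disassembly edgeR and limma voom called 0, with 4 at an unadjusted p under 0.05 each, and DESeq2 called 0, with 1. Among 8 other Munc18-type and tethering genes edgeR and limma voom called 0, with 1 at an unadjusted p under 0.05 each, and DESeq2 called 0, with 0. Nsf and Napa, which take SNARE complexes apart, had log2 fold changes of -0.03 ± 0.08 and 0.05 ± 0.06.

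Sv2c and Syt7 passed the test under each of 12 alternatives run, and each of the other 7 members missed it in at least 3 of them. With a sample left out, the log2 fold change of Sv2c lay between 2.22 and 2.41 and that of Syt7 between 0.86 and 1.03. DESeq2 called 2 of the members higher, Sv2c and Syt7, and 0 lower, with 7 lower at an unadjusted p under 0.05. Without Trps1 siRNA 2, and likewise without Negative siRNA 2, edgeR called the same pair higher and 0 lower, with 7 and 5 lower at an unadjusted p under 0.05. Without Negative siRNA 1 edgeR again called 2 higher, and 4 lower. Without Trps1 siRNA 1 it called 4 higher and 3 lower.

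**Figure D4:**
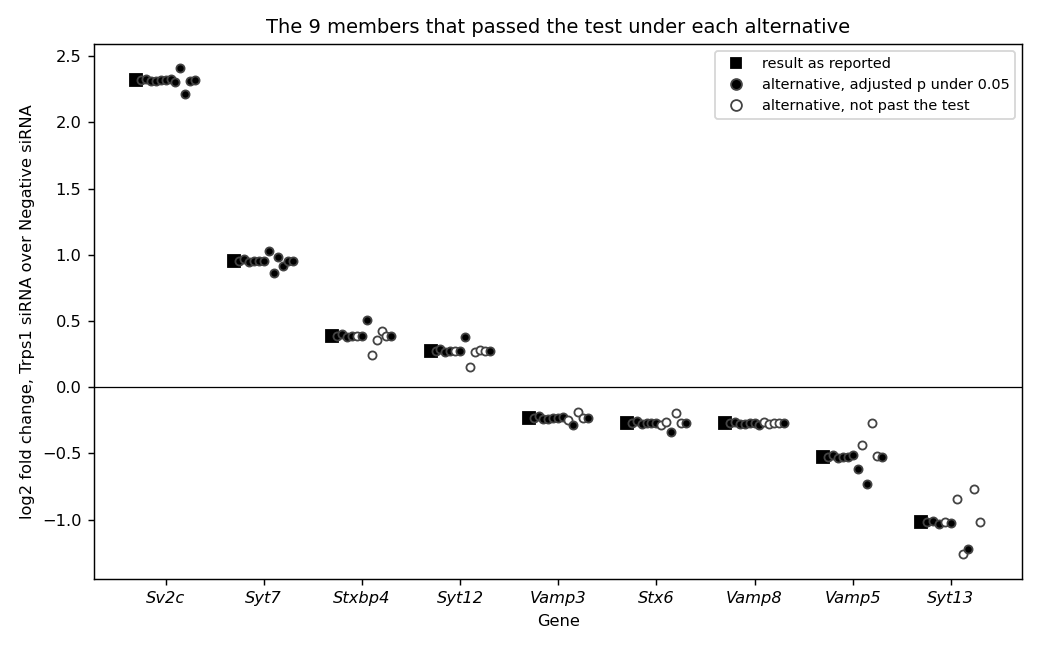
Log2 fold change (y axis, Trps1 siRNA over Negative siRNA) of the 9 members that passed the test, as reported (squares) and under each alternative that gave an adjusted p (circles, filled where past the test). Sv2c and Syt7 have filled circles throughout, and every other gene has some open ones, while no value crosses 0.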

How the data were processed

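RNA sequencing counts of 2 Trps1 siRNA and 2 Negative siRNA samples were grouped by title. The authors deposited raw read counts per gene, and per the submitters' processing notes HISAT2 and featureCounts were used with GRCm38 (mm10). No source used here gives versions, the strand setting or the treatment of reads with several positions. Symbols, positions and exon lengths came from GENCODE M21 for GRCm38 (55141 of 55812 features matched). The authors' deposited table of 780 genes holds, per its header, a mean signal per group, log2 fold changes, p-values and adjusted p-values, from a test that is not given.

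Counts were fitted with edgeR 4.0.16 (R 4.3.3): TMM factors, a filterByExpr minimum of 10 counts, robust glmQLFit and glmQLFTest, group only, Benjamini-Hochberg adjustment over 14701 genes and a threshold of 0.05. Standard errors (SE) were the absolute log2 fold change over the root of the F statistic. Replicates differed by more than sampling noise (mean chi-square per gene 4.61 between Trps1 siRNA samples and 7.6 between Negative siRNA samples). RPKM used TMM-scaled totals and the union of exons. Counts carry no molecular identifiers, so limits cover counting error only.

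Named were Trps1, members past the test, Sv2 genes, each family's highest tested member per length, and list genes past the test; further members were chosen after their values were seen, and a few genes of the families and lists are not reported here. Members, lists and motifs were chosen with earlier results of these data known. Alternatives were RLE factors, library totals, other filters, DESeq2 1.42.0, limma 3.58.1 voom, no robust estimation, a replicate block and each sample left out.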

Additional observations from a re-analysis of the deposited data

How the results depend on the processing

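Of 177 values of 15 named members under the 12 alternatives, 145 kept their direction and side of the threshold, 29 kept their direction but no longer passed, and 2 (Stxbp3 and Syt11, with the block) newly passed. Snap47, at 0.02 and not past the test, changed sign to -0.0477 without Trps1 siRNA replicate 1 and lay between that and 0.0805 with a sample left out; the cause was not tested. Over all tested genes edgeR called 1652, against 991 with DESeq2 and between 871 (without Trps1 siRNA 2) and 1675 (without Trps1 siRNA 1) with a sample left out. Members called higher were 4, against 2 with DESeq2, 2 without robust estimation and between 2 and 4 with a sample left out, and members called lower were 5, against 0 with DESeq2 (7 at an unadjusted p under 0.05) and between 0 and 4 with a sample left out. Genes of the 5 other lists called higher were 3, 3 with DESeq2 and between 3 and 5 with a sample left out, and those called lower were 3, 2 with DESeq2 and between 1 and 5. Fits with fewer samples have 1 residual degree of freedom less. DESeq2 gave Syt13 no adjusted p, and with a mean of at least 5 CPM Syt13 was not tested.

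The replicate numbers are only numbers in the labels, and deviations of same-numbered samples from their group means correlated at 0.017 across genes. With the replicate block 2285 genes, 4 members higher and 7 lower, and 5 and 3 list genes higher and lower were called. The block lowers the residual degrees of freedom from the 2 of the main fit. With it the edgeR adjusted p of Sv2c was 2.42e-152, beside 4.16e-16 in the main fit, at SE of 0.0861 and 0.0882. What the fit alone adds to the calls with the block was not tested. Scaling moved the median of all genes by less than 0.1. Depth limits genes such as Syt13 and Sv2a.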
